A study of Homo sapiens with 8 samples.

Results

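The short arms of the 5 human acrocentric chromosomes, 13, 14, 15, 21 and 22, were examined in 2 deposited peak lists of DNA pulled down with α-satellite RNA probes. A peak was taken as a member where its start lay below 15 Mb on chromosome 13, 10 Mb on 14, 16 Mb on 15, 10.9 Mb on 21 or 12 Mb on 22, on genome build hs1. These limits use position alone. Of the 32035 peaks in the asynchronous list 1080 met them (3.37%, 3.18 to 3.57%), as did 1034 of 33553 in the mitotic list (3.08%, 2.90 to 3.27%). Shares and ratios of peaks are given with exact 95% binomial intervals, which cover counting error only and treat neighbouring peaks as independent.

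The cells were wild-type RPE1, a telomerase-immortalised human cell line from retinal pigment epithelium, and no agent or allele is named in the labels. They were grown asynchronously (labelled Async) or taken in mitosis (labelled Meta). Sonicated chromatin was incubated with biotinylated antisense probes (ChIRP), and each condition had an Input library, a library labelled Scr and probe libraries labelled Odd and Even. Each deposited list was made from merged Odd and Even libraries, so there was 1 list per condition, no replicate error and no test between conditions. The Input and Scr libraries and sequencing depth were not analysed here.

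The short arms of acrocentric chromosomes carry the tandem ribosomal RNA genes, around which nucleoli form. Beside these genes lie blocks of satellite DNA, including α-satellite outside the centromere. α-Satellite is the tandem repeat on which human centromeres are built, and it is transcribed. Segments of these arms are closely alike on different acrocentric chromosomes, so a short read can match several of them. The rule by which such reads were assigned was not given in the sources used here. Build hs1 is the telomere-to-telomere assembly of another human line, CHM13, and the arms of RPE1 may differ from it in length and content. Probes against the RNA can also pair with the DNA itself, and the lists do not separate these cases. No annotation of hs1 was used, so each peak is described by its coordinates alone, with no repeat class or gene.

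Nearly all peaks lay in the part of each arm near the centromere. Joining peaks of both lists across gaps of at most 100 kb, and keeping groups of at least 20 peaks, gave 21 clusters with a summed span of 4982 kb. They held 1057 asynchronous peaks (97.9%) and 982 mitotic peaks (95.0%). The first cluster began at 11148055 on chromosome 13, 6083405 on 14, 13979454 on 15, 8172055 on 21 and 8492626 on 22. Of the 128 bins of 500 kb in the arms, 45 held a peak and 23 held at least 10 peaks over both lists. The dense bins numbered 7 on chromosome 14, 5 on 15, 4 on 13, 4 on 21 and 3 on 22. The widest stretch with no peak start in either list was 7.49 Mb on chromosome 15, from 6489646 to 13979454.

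**Figure D1:**
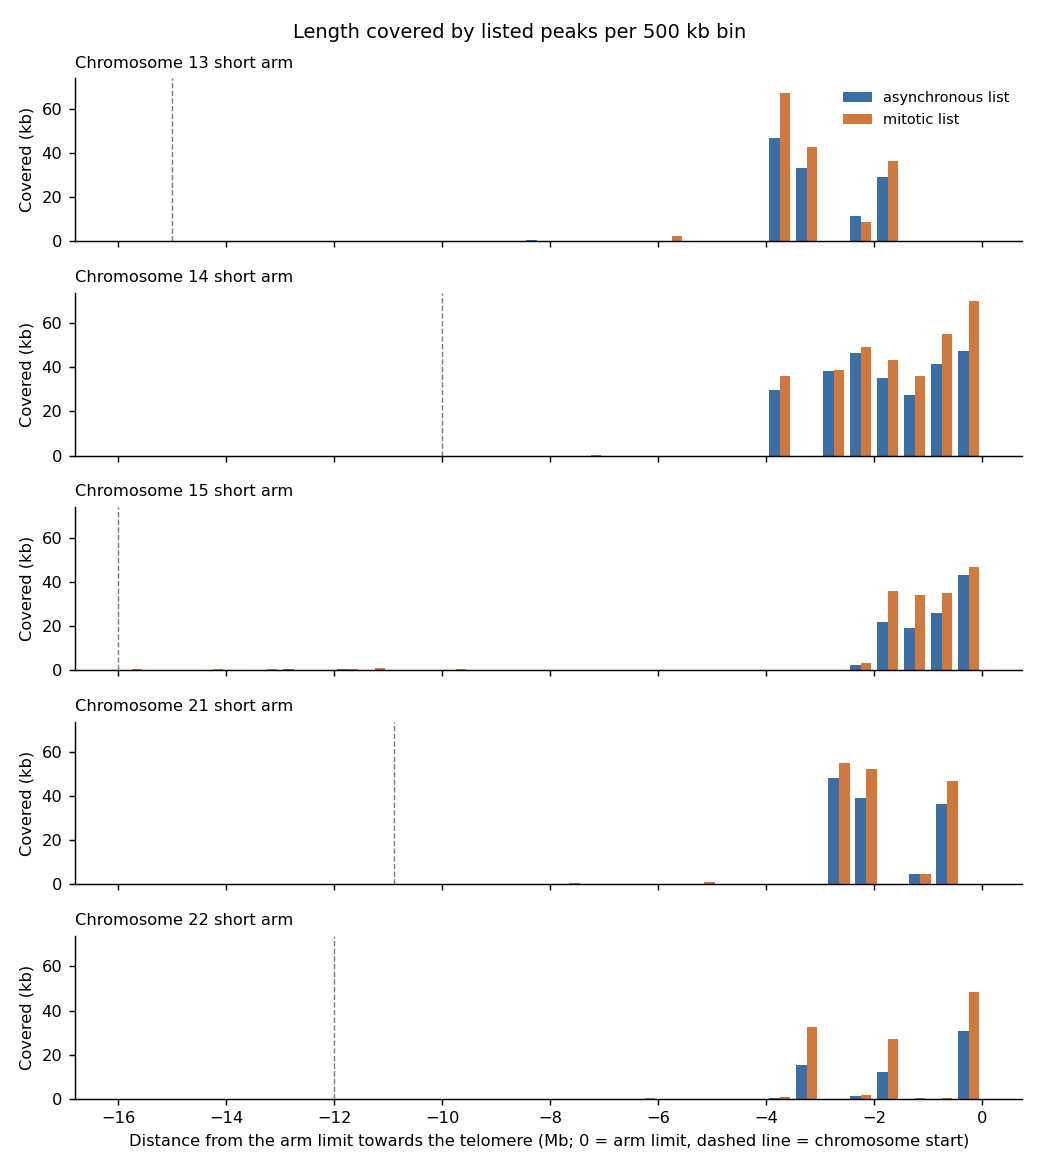
Covered length in kb (vertical axis) of each 500 kb bin of the 5 short arms in the asynchronous and mitotic lists, against the distance in Mb from the arm limit. The tall bars stand in the 4 Mb next to the limit, 23 bins hold at least 10 peaks, and the bins towards the telomere are empty or hold a few short peaks.

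Few peaks lay on the telomere side of the first cluster. The asynchronous list held 6 there, 3 on chromosome 13, 2 on 15 and 1 on 21. The mitotic list held 27, of which 7 lay on chromosome 13, 1 on 14, 10 on 15, 8 on 21 and 1 on 22. The ratio was 4.50 (1.82 to 13.3), and 0 of the 6 asynchronous peaks met a mitotic peak. The share met was 44.3% of all asynchronous arm peaks and 81.9% of the whole asynchronous list. All 6 had a fold enrichment between 3.65 and 5.17, and of asynchronous arm peaks under 6, 36.4% were met. A mitotic excess of scattered peaks was seen over the whole genome: 1015 bins of 500 kb held mitotic peaks alone and 121 asynchronous peaks alone. That is a count of bins. The ratio of peaks was 1.05 over the whole list. It was 1.45 on the 18 other chromosomes outside the region with the most covered length on each. The arm peaks before the first cluster were short, with a median width of 244 bp (218 to 291 bp) among the asynchronous and 270 bp (166 to 568 bp) among the mitotic ones. On chromosome 13, all 7 mitotic peaks lay between 9171804 and 9342522, and 1 asynchronous peak at 9185879 lay among them without meeting any. A fold enrichment of 6 and a −log10 q of 5 were passed by 42.2% of all mitotic arm peaks and 77.6% of the whole mitotic list. Among the 27, only 3 passed both, namely those starting at 9176853 on chromosome 13 and at 4668804 and 6489646 on 15. The highest fold enrichment was 7.53, at the last of these. Whether any of these peaks lies in ribosomal DNA was not tested.

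On the 5 arms together the mitotic list covered more sequence with about as many peaks. The asynchronous list covered 687 kb and the mitotic list 914 kb, a ratio of 1.33. The ratio of peak counts was 0.957 (0.878 to 1.04), and among peaks of at least 500 bp it was 1.26. The direction of the covered length was the same on every arm. It went from 121 to 156 kb on chromosome 13, from 265 to 329 kb on 14 and from 113 to 157 kb on 15. On chromosome 21 it went from 129 to 161 kb, and on 22 from 59.7 to 111 kb. Chromosome 22 thus had the largest ratio, 1.86, and chromosome 14 the smallest, 1.24.

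Peak counts did not follow covered length from arm to arm. They went from 179 to 163 on chromosome 13, from 351 to 312 on 14 and from 190 to 162 on 21. The counts were 226 and 230 on chromosome 15 and 134 and 167 on 22. Every interval of the 5 count ratios included 1, from 0.853 (0.687 to 1.06) on chromosome 21 to 1.25 (0.987 to 1.58) on 22.

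Away from the short arms the lists covered more nearly equal lengths. On the rest of the same 5 chromosomes, which holds their centromeric arrays, covered length was 7297 kb and 7600 kb, a ratio of 1.04. On the 18 other chromosomes the ratio was 1.003. A further comparison took all peaks of the 18 other chromosomes outside the region with the most covered length on each. They were spread over 1099 bins of 500 kb, of which 919 held mitotic peaks alone. Only 31 of the bins held at least 10 peaks over both lists, so this part mixes scattered and dense peaks. In it the ratio of covered length was 1.16, while the ratio of peak counts was 1.45 (1.36 to 1.54). The short arms therefore had the higher ratio of covered length and the lower ratio of peak counts. With 1 list per condition this contrast was not tested.

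**Figure D2:**
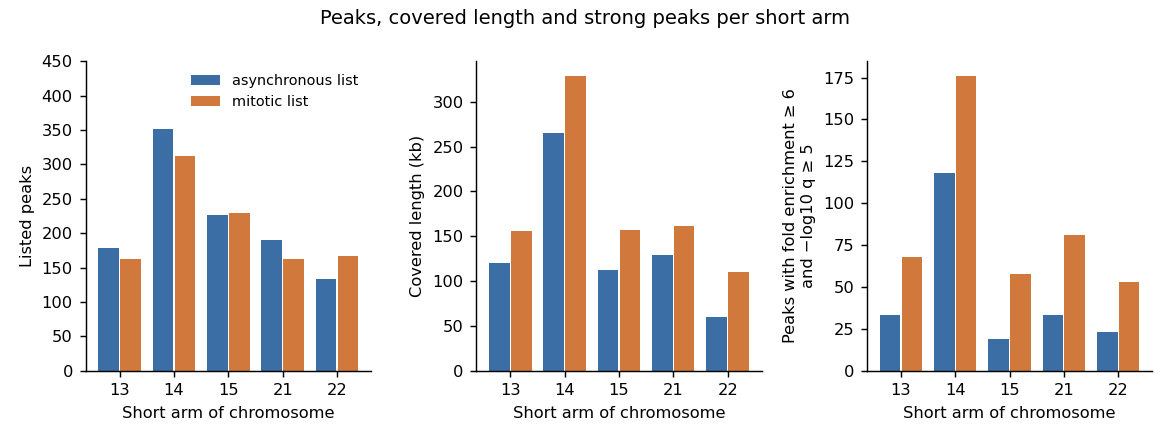
Listed peaks, covered length in kb and strong peaks (vertical axes) on each short arm in the asynchronous and mitotic lists. Covered length and strong peaks stand higher in the mitotic list on all 5 arms, while listed peaks go from 351 to 312 on chromosome 14 and from 134 to 167 on 22.

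The peaks of the short arms were weaker and shorter than those of the rest of the same chromosomes. The authors' fold enrichment per peak, the pileup over local background, had a median of 4.71 among asynchronous and 5.68 among mitotic arm peaks. On the rest of the same chromosomes the medians were 8.01 and 9.31. Median width was 421 bp and 520 bp on the arms against 1098 bp and 1140 bp on the rest of those chromosomes. On the 18 other chromosomes outside their largest region the median fold enrichment was 6.73 and 5.37 and the median width 719 and 344 bp. Mitotic peaks there were thus weaker and shorter than on the arms, and asynchronous ones stronger and wider. Chromosome 14 had the highest median fold enrichment of the arms in both lists, 5.16 and 6.27. The lowest medians in the asynchronous list were 4.43 on chromosome 15 and 4.56 on 22, and these arms were also lowest in the mitotic list, at 5.15 and 5.22.

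Peaks that reached a fold enrichment of 6 together with a −log10 q of 5 are called strong here. There were 226 on the short arms in the asynchronous list, or 20.9% of the arm peaks (18.5 to 23.5%), against 73.7% of the whole list. In the mitotic list there were 436, or 42.2% (39.1 to 45.2%), against 77.6% of the whole list. On the 18 other chromosomes outside their largest region the shares were 58.0% (55.7 to 60.3%) and 45.6% (43.7 to 47.5%), and the mitotic interval overlapped that of the arms. The ratio of strong peaks was 1.93 (1.64 to 2.28) on the short arms, and that of their covered length was 2.38. On the rest of the same chromosomes the ratio of strong peaks was 1.11 (1.06 to 1.17), on the 18 other chromosomes 1.09 (1.07 to 1.11), and on these outside their largest region 1.14 (1.05 to 1.24).

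The number of strong peaks was higher in the mitotic list on each arm. It went from 33 to 68 on chromosome 13, from 118 to 176 on 14, from 19 to 58 on 15, from 33 to 81 on 21 and from 23 to 53 on 22. The lowest of these ratios was 1.49 (1.17 to 1.90), on chromosome 14, and the highest 3.05 (1.79 to 5.43), on 15. Fold enrichment and q depend on sequencing depth, which is unknown here, and their part in the ratio was not tested. In the top 25% of each list by fold enrichment, a limit set within each list, the ratio on the arms was 1.06 for peaks and 1.11 for covered length. Over the whole list such a limit holds the ratio of peaks near that of all peaks, 1.05. The value of 1.06 on the arms lay close to this and is given without an interval.

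Most arm peaks of one list did not meet a peak of the other. By an overlap of at least 1 bp, 478 asynchronous arm peaks (44.3%, 41.3 to 47.3%) met a mitotic peak, against 81.9% over the whole list. Of the mitotic arm peaks 425 (41.1%, 38.1 to 44.2%) met an asynchronous one, against 79.2% over the whole list. On the rest of the same chromosomes the shares were 88.2% and 84.9%. On the 18 other chromosomes outside their largest region they were 65.4% (63.2 to 67.6%) and 43.0% (41.1 to 44.9%), the latter about that of the mitotic arm peaks. The lists shared 323 kb on the arms, which was 46.9% of what the asynchronous list covered there and 35.3% for the mitotic list. Requiring 50% of both peaks left 18.9% of asynchronous and 19.7% of mitotic arm peaks met.

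The arms also differed among themselves in this overlap. The share of asynchronous peaks met was 57.3% (51.9 to 62.5%) on chromosome 14, 47.5% on 13 and 41.6% on 21. It was 34.3% on chromosome 22 and 29.6% (23.8 to 36.1%) on 15. The intervals of chromosomes 14 and 15 did not overlap, while those of 13 (39.99 to 55.1%) and 21 (34.5 to 48.9%) did. Weak peaks were met less often, and the difference from the rest of these chromosomes was seen in both classes. Of asynchronous peaks under a fold enrichment of 6, 36.4% (33.2 to 39.7%) were met on the arms and 64.3% (60.9 to 67.5%) on the rest of the 5 chromosomes. At 6 and above the shares were 73.9% (67.7 to 79.5%) and 94.5% (93.7 to 95.3%). On the 18 other chromosomes outside their largest region they were 36.1% (32.7 to 39.6%) and 86.6% (84.4 to 88.6%), so that weak asynchronous peaks were met there about as often as on the short arms. Weak mitotic peaks were met in 26.6% (23.1 to 30.3%) on the arms and in 8.28% (6.90 to 9.83%) there, against 40.8% on the rest of the 5 chromosomes. At 6 and above the mitotic shares were 61.0% (56.3 to 65.6%) on the arms, 84.4% (82.3 to 86.4%) outside the largest regions and 90.2% on the rest of the 5 chromosomes.

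The added mitotic length lay both beside shared peaks and in separate peaks. Mitotic peaks that met an asynchronous peak held 240 kb beyond it, whereas asynchronous peaks that met a mitotic one held 78.7 kb beyond it. Peaks that met none held 286 kb in 602 asynchronous and 352 kb in 609 mitotic peaks. The difference beside shared peaks was thus the larger part of the gain. On the rest of the 5 chromosomes it was too, at 510 and 730 kb against 328 and 412 kb in peaks that met none. Outside the largest regions of the 18 other chromosomes the lengths were 253 and 583 kb against 438 and 624 kb. Over the whole list they were 5114 and 5137 kb against 3706 and 4316 kb, so there separate peaks held the larger part. On the chromosome 13 arm the difference beside shared peaks was the whole of the gain. Peaks that met none held 47.4 kb (asynchronous) and 45.8 kb (mitotic) there, while the lengths beside shared peaks were 10.2 and 47.6 kb. On chromosome 22 both parts were larger in the mitotic list, at 27.5 against 6.69 kb beside shared peaks and 64.8 against 34.6 kb in peaks that met none.

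**Figure D3:**
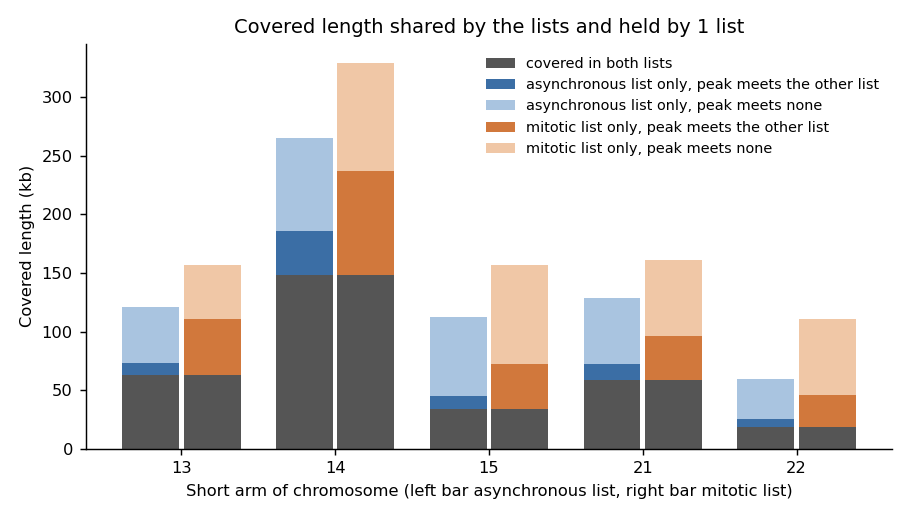
Covered length in kb (vertical axis) of each short arm, split into length covered in both lists, length of 1 list inside peaks that meet the other list, and length in peaks that meet none. The middle segment is larger in the mitotic bar on all 5 arms, with 47.6 against 10.2 kb on chromosome 13.

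Shared peaks were wider in the mitotic list. In 321 cases 1 asynchronous peak met 1 mitotic peak and neither met any other, and the mitotic peak was the wider in 216 of these (67.3%). Median widths were 496 bp and 674 bp. Over the whole list 14734 such pairs were found, and the mitotic peak was wider in 45.1% of them, with medians of 819 and 791 bp. Outside the largest regions of the 18 other chromosomes such pairs were not counted. Peaks there that met any had median widths of 1036 and 1220 bp, so they too were wider in the mitotic list. For such peaks the medians were 519 and 771 bp on the arms, 1222 and 1294 bp on the rest of the 5 chromosomes and 997 and 944 bp over the whole list. Each arm had more pairs with the wider peak in the mitotic list, 44 of 61 on chromosome 13, 87 of 131 on 14, 25 of 41 on 15, 39 of 53 on 21 and 21 of 35 on 22. In all, 66 mitotic arm peaks met more than 1 asynchronous peak, 15.5% of those that met any, against 15.7% over the whole list. Of the asynchronous arm peaks that met any, 25 met more than 1 mitotic peak, or 5.23%, against 17.3% over the whole list. On chromosome 22 the counts were 3 mitotic and 4 asynchronous peaks.

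Among the 21 clusters, covered length was higher in the mitotic list in 19 and lower in 2. In 12 of the 19 it was higher although the cluster had fewer mitotic peaks. The ratio had a median of 1.28 and ranged from 0.815 to 2.14, with 7 clusters at 1.5 or above. Clusters on other parts of the genome were not tallied, so these counts do not show a trait particular to the arms. For bins, the share over the genome is given below. Clusters were covered in part: between 4.22% and 42.4% of a cluster's span was covered in the asynchronous list and between 8.74% and 45.4% in the mitotic list.

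In bins of 500 kb with at least 10 peaks over both lists, covered length was higher in the mitotic list in 22 of 23 arm bins, against 60.4% of such bins over the genome and 24 of 31 (77.4%) on the 18 other chromosomes outside their largest region. The minimum of 10 peaks was set after the lists had been seen. With every bin that held a peak, the tally was 39 of 45 (86.7%) on the arms, 83.9% over the genome and 88.2% outside the largest regions, so that by this count the arms lay near both. In the dense arm bins, covered length was at least 1.5 times higher in 5 of the 23 (21.7%), against 4.25% over the genome and 4 of 31 (12.9%) outside the largest regions of the 18 other chromosomes. These were 3 of the 3 dense bins on chromosome 22 and 2 of the 5 on 15. The bin that went the other way, from 12500001 to 13000000 on chromosome 13, held 11.3 kb of asynchronous and 8.45 kb of mitotic peaks. With every bin that held a peak counted, 21 of 45 arm bins were at least 1.5 times higher, against 73.8% over the genome, where 1015 of 1410 bins held mitotic peaks alone.

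The bin with the most covered length on each arm was also higher in the mitotic list. On chromosome 13 it was the bin from 11000001 to 11500000, with 46.5 kb and 67.2 kb, and on 22 the bin from 11500001 to the limit, with 30.6 and 48.5 kb. Both were also the bins with the largest gain of their arm. On chromosome 15 the bin with most covered length, from 15500001 to the limit, held 43.1 and 46.4 kb, while the largest gain lay from 14500001 to 15000000, with 19.2 and 33.9 kb. On 21 the fullest bin, from 8000001 to 8500000, held 48.4 and 54.9 kb, and the largest gain lay in the next one, with 39.2 and 52.3 kb. The largest losses on 15 and 21 were single asynchronous peaks of 291 and 245 bp, and on 14 and 22 no bin was lower.

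**Figure D4:**
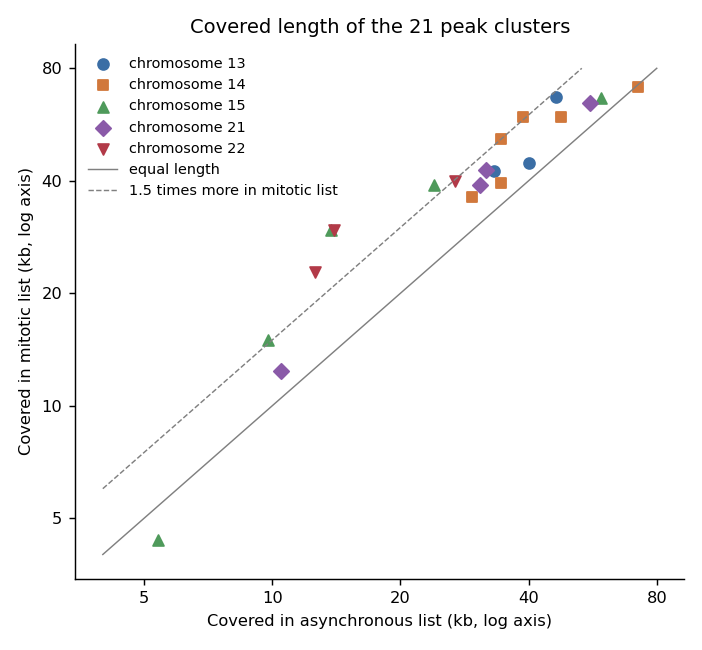
Covered length in kb of each of the 21 clusters in the asynchronous list (horizontal log axis) and in the mitotic list (vertical log axis), with lines for equal length and for 1.5 times more. Of the points 19 lie above the line of equal length, and 7 lie above the dashed line, on chromosomes 14, 15 and 22.

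On chromosome 22 every cluster was close to or above a ratio of 1.5. The cluster from 8492626 to 8823597 was covered over 13.96 kb by 39 asynchronous peaks and over 29.5 kb by 61 mitotic peaks. Its peaks were the least shared by length, with a Jaccard index of covered base pairs, shared over combined length, of 6.997%. The cluster from 9950714 to 10187445 held 12.6 kb in 36 and 22.8 kb in 37 peaks. That from 11691104 to 11857048 held 26.9 kb in 45 and 39.9 kb in 48 peaks. In this arm, then, the more distal clusters had the larger ratios, 2.11 and 1.81 against 1.49.

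Chromosome 15 held the clusters with the highest and the lowest ratio. From 14676154 to 14748649, 18 asynchronous peaks covered 13.8 kb and 14 mitotic peaks covered 29.5 kb, and the median width went from 431 to 1210 bp. The longest mitotic peak there, from 14710376, measured 6147 bp. Next to it, from 14939500 to 14987195, 12 asynchronous peaks covered 5.38 kb and 9 mitotic peaks covered 4.39 kb. This is the smallest cluster, and its ratio of 0.815 rests on 21 peaks in all. From 15110525 to 15218271 the lists covered 9.76 and 14.97 kb, or 9.06% and 13.9% of the span. Of its 17 asynchronous peaks 5.88% met a mitotic one, and of its 16 mitotic peaks 6.25% met an asynchronous one, so these shares rest on few peaks. The cluster from 13979454 to 14424997 went from 24.0 to 39.0 kb.

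The last cluster of chromosome 15, which begins at 15406353, is divided by the arm limit at 16 Mb. Inside it the lists covered 59.1 and 66.5 kb. The last asynchronous peak inside starts at 15999680, with a fold enrichment of 7.28, and the first outside at 16001405, with 5.23. On chromosome 22 the last mitotic peak inside starts at 11998905, with a fold enrichment of 6.39, and the first outside at 12007775, with 4.59. On chromosomes 13, 14 and 21 the limits fall in stretches without peaks, and the first peaks outside are strong: on 21 the first asynchronous one, from 10962530, is 93915 bp wide with a fold enrichment of 15.5.

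Chromosome 14 carried the most peaks and covered length of the arms, in 6 clusters. The cluster from 7439976 to 7610124 stood apart from the other 20. Its median fold enrichment was 8.87 among asynchronous and 10.5 among mitotic peaks, and its highest value, 16.4 and 15.9, was the highest of all arm peaks in each list. The peaks with these values start at 7461452 and 7468950. It held 61 of the 226 strong asynchronous arm peaks and 58 of the 436 strong mitotic ones. Its covered length was 72.2 and 71.4 kb, a ratio of 0.989, so it did not share the mitotic gain. Its Jaccard index, 61.6%, was the highest of the clusters, whose median was 19.9%.

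The other clusters of chromosome 14 had higher mitotic lengths. From 8881850 to 9056847 the lists covered 34.5 and 51.8 kb, with 38 and 35 peaks. From 9681304 to 9856280, the cluster nearest to the arm limit, they covered 38.7 and 59.2 kb with 25 and 26 peaks. That cluster includes the widest peak of all arms, which starts at 9782701 and spans 14574 bp in asynchronous cells, and starts at 9782477 and spans 16569 bp in mitotic cells. From 7861502 to 8230124 the lengths were 47.7 and 59.4 kb, from 9216677 to 9410623 they were 34.4 and 39.5 kb, and from 6083405 to 6435874 they were 29.5 and 36.2 kb. The bin with the most covered length on this arm, from 9500001 to its limit, went from 47.2 to 70.2 kb.

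The arms of chromosomes 13 and 21 carried clusters of like size and spacing. On 13, the cluster from 11148055 to 11489321 held 46.5 kb in 81 asynchronous peaks and 67.2 kb in 66 mitotic peaks. The next, from 11743375 to 11837072, held 33.2 and 42.5 kb. On 21, the cluster from 8172055 to 8550221 held 55.8 kb in 93 and 64.5 kb in 80 peaks, and the next, from 8802728 to 8904048, held 31.8 and 42.7 kb. The second cluster of each had strong peaks, up to a fold enrichment of 14.7 and 15.8 on 13 and of 14.8 and 13.4 on 21. On 21 it included a peak that was 11595 bp wide in asynchronous and 12197 bp wide in mitotic cells. Their Jaccard indices between the lists, 55.3% and 49.6%, followed that of the strong chromosome 14 cluster.

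The third group was undivided on chromosome 13 and divided on chromosome 21. On chromosome 13 the cluster from 12967751 to 13322170 held 40.2 kb and 44.6 kb. On 21 the clusters from 9981953 to 10182071 and from 10311125 to 10387372 held 30.8 and 39.1 kb and 10.5 and 12.4 kb. All 3 ratios, 1.11, 1.27 and 1.19, were above 1.

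When the peaks of one arm were moved along another, the pair of chromosomes 13 and 21 had the most coinciding length in both lists, though not by much. For each of the 10 pairs of arms, the length covered in both arms was computed at every offset in steps of 50 bp. For chromosomes 13 and 21 it was highest at an offset of -2937.85 kb in the asynchronous list, where 37.1 kb coincided, and at -2938.00 kb in the mitotic list, where 53.25 kb did. The next best offsets more than 100 kb away gave 14.1 and 22.7 kb, so the leading offset exceeded them 2.64 and 2.35 times. Other pairs reached nearly the same length, with 36.2 kb for asynchronous peaks of 14 and 21 and 49.8 kb for mitotic peaks of 13 and 14, but their next best offsets gave 26.3 and 32.7 kb. In the other 9 pairs the leading length over the next best lay between 1 and 1.38 for asynchronous peaks and between 1.02 and 1.59 for mitotic peaks. The leading offsets of the lists lay within 1 kb of each other in 2 of the 10 pairs, this one and 15 with 22. In the latter 8.30 and 14.3 kb coincided, and this exceeded the next best offset 1.03 and 1.02 times. The mitotic peaks were mapped to the same reference and give no independent support, and this measure was chosen after the positions had been seen.

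Counting coinciding starts gave the same offset for chromosomes 13 and 21. Within a window of 100 bp, 16 pairs of asynchronous starts coincided at -2938021 bp, and 10 pairs of mitotic starts did so there. The best mitotic offset was -2938027 bp, with 13. By starts alone the asynchronous count was no higher than for chromosomes 14 and 21, where 16 pairs coincided at an offset of 781921 bp, with 2 mitotic pairs there. The best mitotic count for chromosomes 14 and 21, at 724651 bp, was also 13, so by starts these arms equalled 13 and 21 in both lists, at offsets that differed between the lists. At -2938 kb, the second chromosome 13 cluster shared 48.6% of its asynchronous and 47.0% of its mitotic covered length with chromosome 21. The first cluster shared 27.1% and 38.2%, and the third 13.6% and 11.7%. Such shares also depend on how densely chromosome 21 was covered in the same window. It was covered over 27.2 and 37.5 kb of the 93.7 kb of the second cluster. For the first cluster this was 43.5 and 53.7 of 341 kb, and for the third 33.6 and 34.5 of 354 kb. The order of the shares therefore does not rank the clusters by likeness. Reads that match both arms may be placed on either, and their part in the likeness was not tested.

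**Figure D5:**
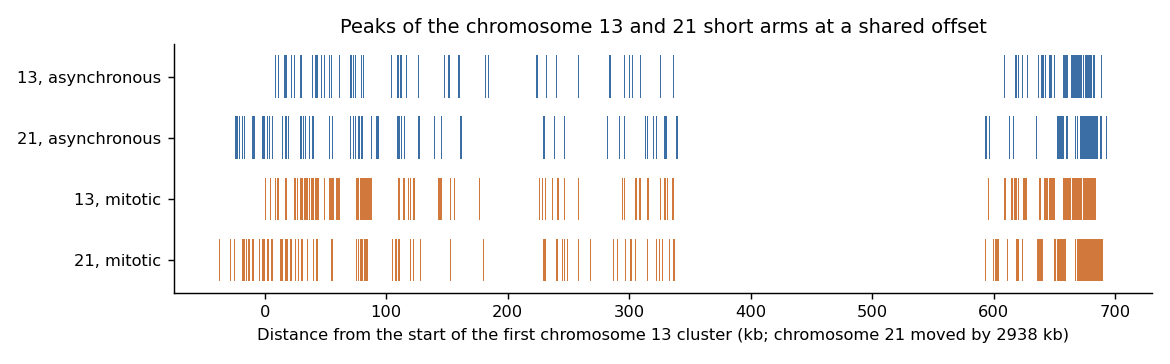
Peaks of the asynchronous and mitotic lists on the short arms of chromosomes 13 and 21, as bars against the distance in kb from the start of the first chromosome 13 cluster, with chromosome 21 moved by the common offset. Both arms show a sparse group of peaks, a stretch without peaks and a compact group of wide peaks. In the mitotic list the 2 chromosome 13 groups share 25.7 and 19.95 kb with chromosome 21.

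The lists hold only a part of the peaks first found. Running numbers in the peak names follow genome order, so missing numbers between listed peaks count calls that were removed before deposit. From the first to the last listed peak of each arm, 1080 of 4895 asynchronous numbers (22.1%, 20.9 to 23.3%) and 1034 of 5417 mitotic numbers (19.1%, 18.05 to 20.2%) were listed. Over the whole lists the shares were 42.4% and 22.4%. Inside the clusters the shares were close in the 2 lists, 25.7% (24.4 to 27.1%) and 25.3% (23.9 to 26.7%). Outside the clusters, with the telomere side of the first cluster included, 23 of 784 asynchronous numbers (2.93%, 1.87 to 4.37%) were listed. In the mitotic list 52 of 1530 were (3.399%, 2.55 to 4.43%). The clusters were defined by the density of listed peaks, so a higher share inside than outside follows from that rule. The first listed peak of an arm differed between the lists, on chromosome 15 at 3412952 and at 2730. The counts of 784 and 1530 numbers therefore come from unlike stretches. The effect of this filter on the arm ratios was not tested.

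Distances between peak starts within the clusters were spread widely. The most frequent distance between peak starts under 5 kb, in a window of 51 bp, was 574 bp in the asynchronous list, with 30 of 1360 pairs. It was 2851 bp in the mitotic list, with 25 of 1146 pairs.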

How the data were processed

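ChIRP DNA of 8 libraries was listed for RPE1 cells. Per the submitters' processing notes, fastp, Bowtie2 and MACS2 were used with build hs1, and no versions are stated. Per the labels, each deposited list came from merged Odd and Even libraries. The lists have no header, and their columns were identified by value range and by the column order that MACS2 writes for broad peaks. Starts and ends are 1-based. The deposited pileup signal was not used. The authors' fold enrichment ratio and the deposited −log10 q values were used within lists and as 1 limit for both. Deposited scores, with lowest values of 0.3, 1.00 and 1.50, point to a filter by the authors, whose rule was not given in the sources used here.

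Bins of 500 kb were assigned by peak start. Clusters joined gaps of at most 100 kb. Intervals are at 95%, conditional binomial (exact) for ratios of counts and Clopper-Pearson for shares. Overlap, cluster and offset code was checked on simulated data and passed 20 of 20 sets each. The work used Python 3.11.15 with scipy 1.17.1, numpy 2.4.6, matplotlib 3.10.9 and pandas 2.3.3. All clusters were named, and in each arm the bins with most covered length, largest gain and largest loss were considered. The arms, measures and alternatives were chosen with earlier results of these data known, and the minimum of 10 peaks per bin, the classes by strength and the offsets by covered length were added after the lists were seen. Genes are not named, because the gene table given belongs to another build, and for the same reason no sequence is printed.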

Additional observations from a re-analysis of the deposited data

How the results depend on the processing

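Alternatives changed sizes and reversed no direction of covered length. Without each chromosome in turn the ratio of covered length lay between 1.28 and 1.39, and that of peaks between 0.916 and 0.990. With strong peaks alone the 2 ratios were 2.38 and 1.93, with the top 25% by fold enrichment 1.11 and 1.06, and with peaks of at least 500 bp 1.58 and 1.26. The peak ratio was therefore above 1 under these 3 limits. With the top 25% it lay near the 1.05 at which that limit holds the whole list. Limits 1 Mb lower gave 1.32 and 0.974, and joining gaps of at most 500 bp gave 1.29 and 0.975. Without the strong chromosome 14 cluster, left out after its values were seen, they were 1.37 and 0.974, and 41.5% of asynchronous and 38.03% of mitotic peaks met the other list. An overlap of 50% of the peak gave 36.1% and 24.4%, a reciprocal 50% gave 18.9% and 19.7%, and strong peaks in both lists gave 64.2% and 30.5%. Covered length was higher in the mitotic list in 86.8% of 250 kb bins, 93.8% of 1 Mb bins and 100% of 500 kb bins of strong peaks. Other cluster rules gave 15 to 24 clusters. The most frequent distance was 477 bp from ends and 726 bp from midpoints in the asynchronous list, and 1882 and 2151 bp in the mitotic list. The causes were not tested. Depth is unknown. No paired analysis was possible because each condition has 1 merged list, and for the same reason no library could be left out.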
